A study of Danio rerio with 9 samples.

Results

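The cadherins and protocadherins of single zebrafish embryos were examined across 9 RNA-seq libraries. A row was taken as a member when its gene symbol began with cdh and a digit or with pcdh, which gave 66 of the 22337 genes in the deposited tables, 13 cdh and 53 pcdh. All embryos came from an incross of fish with the genotype zic2aGBT133/+; zic2bUW1127/+, so each parent carried one mutant allele at both genes, and were raised at 29 °C to about 25 hours post fertilization (hpf). The offspring were sorted by the presence or absence of coloboma, a gap left where the choroid fissure of the eye does not close, into 4 normal embryos (numbers 3, 4, 6 and 7) and 5 coloboma embryos (numbers 3, 4, 5, 6 and 7). No genotype was given for any single embryo, and the column tag WT of the normal embryos is not explained in the labels, so either group may hold several zic2a and zic2b genotypes. Each library was made from a whole embryo, in which fewer cells of a type and less RNA per cell cannot be told apart.

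Cadherins are calcium-dependent adhesion proteins that hold like cells together. Classical cadherins bind catenins inside the cell, which link them to actin, and the mix of cadherins on a cell helps to sort tissues such as neural tube, epidermis, muscle and vessel wall. Protocadherins adhere more weakly and act in cell movement and in neuron recognition. The clustered protocadherins are made from arrays of variable exons, many of which are joined to shared constant exons, so that a neuron can show its own set of isoforms, as known best from the mouse. The eye cup and the fissure are folded epithelia whose closure depends on cell adhesion, and N-cadherin is known to be needed for the shape of the zebrafish retina.

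The libraries held 20461180 to 59233104 counts, the smallest being that of coloboma embryo 5. Coloboma embryo 3 stood apart from the others in its lens: 14 lens marker genes summed to 81.5 TPM there, against 1949 to 2866 TPM in the other coloboma embryos and 1244 to 2080 TPM in the normal embryos. TPM (transcript abundance as a share of the library) are levels scaled by transcript length as deposited by the authors, and are used below wherever 2 genes are compared. CPM (counts scaled by library size, with TMM factors) are the values of the tests and of single members by embryo. Summed levels of lists are given in TPM, and in CPM as well where stated. Values are listed in the order of the embryo numbers given above.

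No member passed the test between coloboma and normal embryos. Of 65 members tested (edgeR quasi-likelihood test, Benjamini-Hochberg adjustment over 21293 genes, threshold 0.05), 0 had an adjusted p below the threshold, where 0.207% of all genes did (0.0798% higher and 0.127% lower in coloboma embryos). The smallest adjusted p of a member was 0.131, for pcdh1g18. At an unadjusted p under 0.05 there were 8 members (12.3%), 3 with positive and 5 with negative values, against 11.7% of all genes. DESeq2 called 3 of 65 members (4.62%), namely cdh11, pcdh1g18 and cdh1, against 2.75% of all genes. The median log2 change (coloboma minus normal) was -0.08 over the members and 0.00 over all genes tested. Of the 65 values 41 were negative (63.1%, against 49.9% of all genes). The 37 tested rows of the clustered protocadherins held 27 of the negative values, and the 13 cdh genes held 6. Rows of a cluster are not independent of each other, as set out below. The lean to negative values was uneven between embryos. Taken against the normal mean in CPM, the median log2 ratio over members was -0.003, -0.03, -0.02, -0.23 and -0.24 in the coloboma embryos. In the normal embryos it was -0.01, -0.08, 0.11 and -0.03. The CPM ranges of the 2 groups did not overlap for 6 members, or 9.23%, against 4.43% of all genes. Over all genes, 2.27% had the coloboma embryos above and 2.16% had them below. The 6 members were cdh1 with the coloboma embryos above, and cdh11, pcdh1g18, pcdh1gb9, pcdh2ab3 and pcdh2ab5 with them below. Of these, 4 were clustered protocadherins.

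The precision of the fit differed between members. For 45 of the 65 the 95% interval of the log2 change lay within 1 in either direction, and for 20 within 0.5. Among the 27 rows of the pcdh2 cluster that were tested, the interval lay within 1 for 13 and within 0.5 for 1. For the remaining rows of that cluster a change by a factor of 2 was within the interval.

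**Figure D1:**
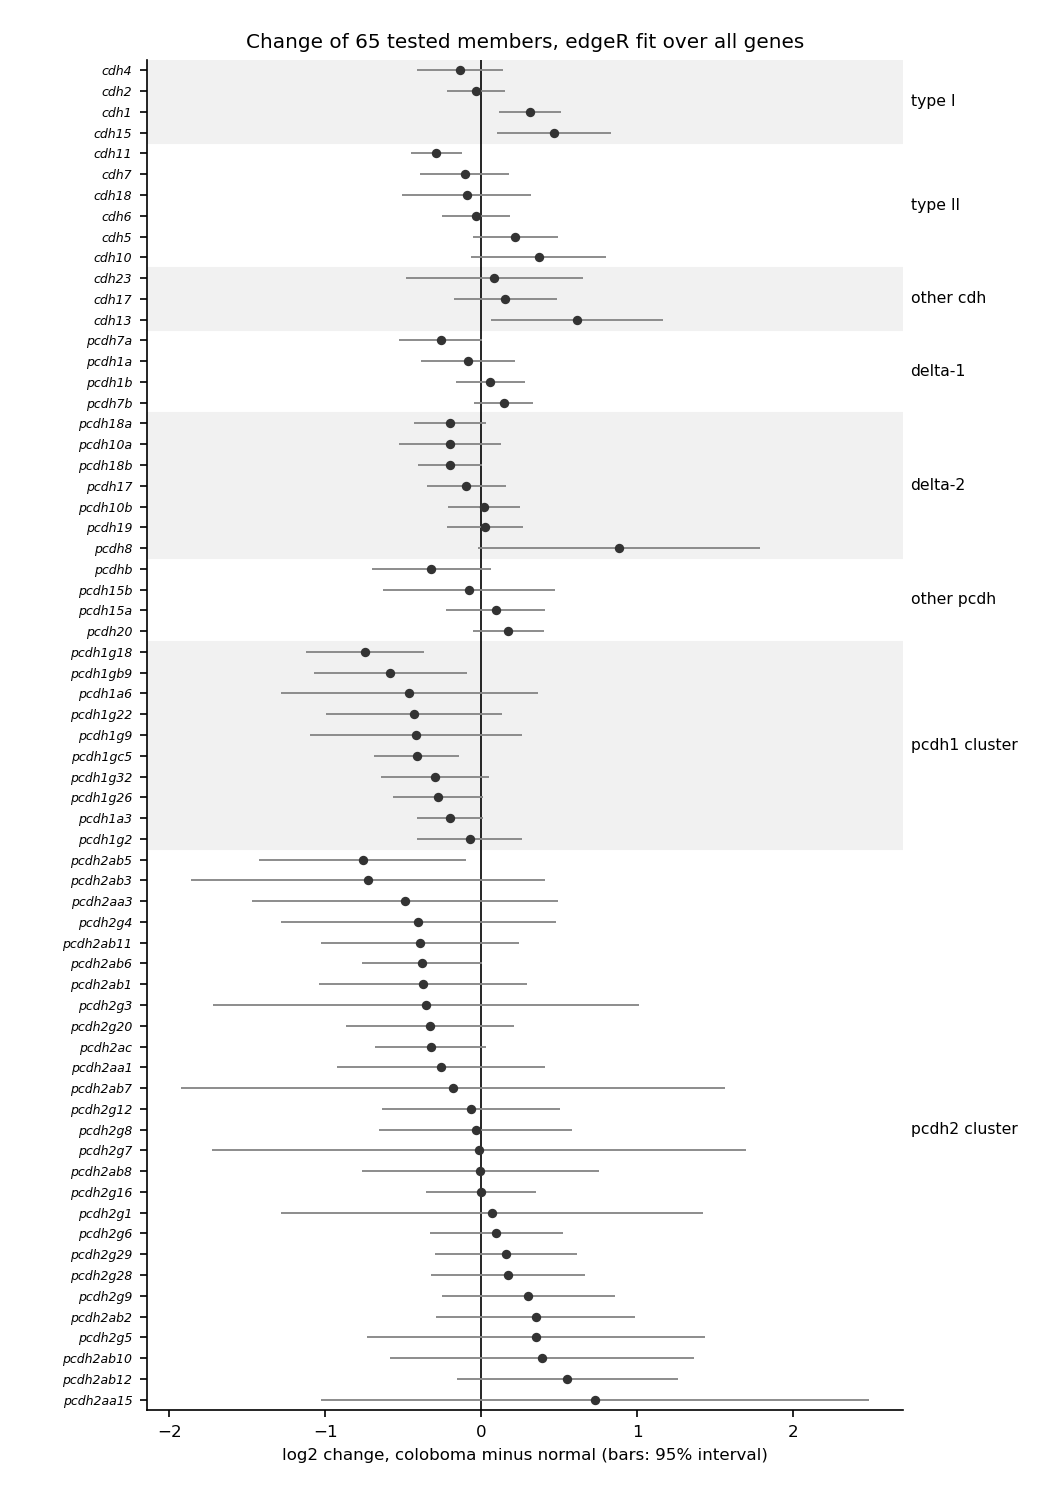
Log2 change (coloboma minus normal, x axis) of the 65 tested members, one row each, ordered by subgroup and value. Points are the edgeR estimates and bars their 95% intervals, each taken singly. The 10 rows of the pcdh1 cluster all lie left of 0, and the widest intervals belong to low rows of the pcdh2 cluster.

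Levels spanned about 3 orders of magnitude between members. Mean TPM over the 9 embryos ran from 89.9 for cdh2 to 0.0933 for pcdh2ab9, with 15 members over 10 TPM and 27 under 1 TPM. The median was 16.1 TPM for the 13 cdh genes and 1.15 TPM for the 53 pcdh genes. By summed TPM over all embryos the classical type I cadherins held 32.6% of the member total and type II cadherins 17.2%. The pcdh1 cluster held 12.8% and the delta-2 protocadherins 15.4%. The 28 rows of the pcdh2 cluster together held 5.01%.

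After cdh2 the order of mean TPM was cdh1 (67.5), pcdh1gc5 (40.8), cdh17 (40.3), cdh6 (33.01), cdh11 (26.1), pcdh18b (23.5), pcdh19 (19.8), pcdh1b (17.8) and cdh15 (16.9). The embryo ranges of neighbours in this order overlapped, except those of cdh2 and cdh1. For cdh2 the normal embryos had 87.8, 79.3, 111 and 98.5 TPM and the coloboma embryos 79.9, 88.7, 91.3, 86.1 and 87.1 TPM. The level of cdh1 was 54.8, 63.2, 56.7 and 72.2 TPM in normal and 71.1, 77.4, 78.4, 66.8 and 67.3 TPM in coloboma embryos, below cdh2 in each embryo. The levels of pcdh1gc5 (41.3, 39.5, 60.2 and 54.3 TPM in normal, 39.5, 36.5, 28.5, 32.4 and 34.9 TPM in coloboma embryos) and cdh17 (38.7, 46.5, 33.8 and 36.9 TPM in normal, 35.2, 42.1, 47.3, 48.4 and 33.9 TPM in coloboma embryos) were interleaved, with pcdh1gc5 above cdh17 in 5 of 9 embryos.

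**Figure D2:**
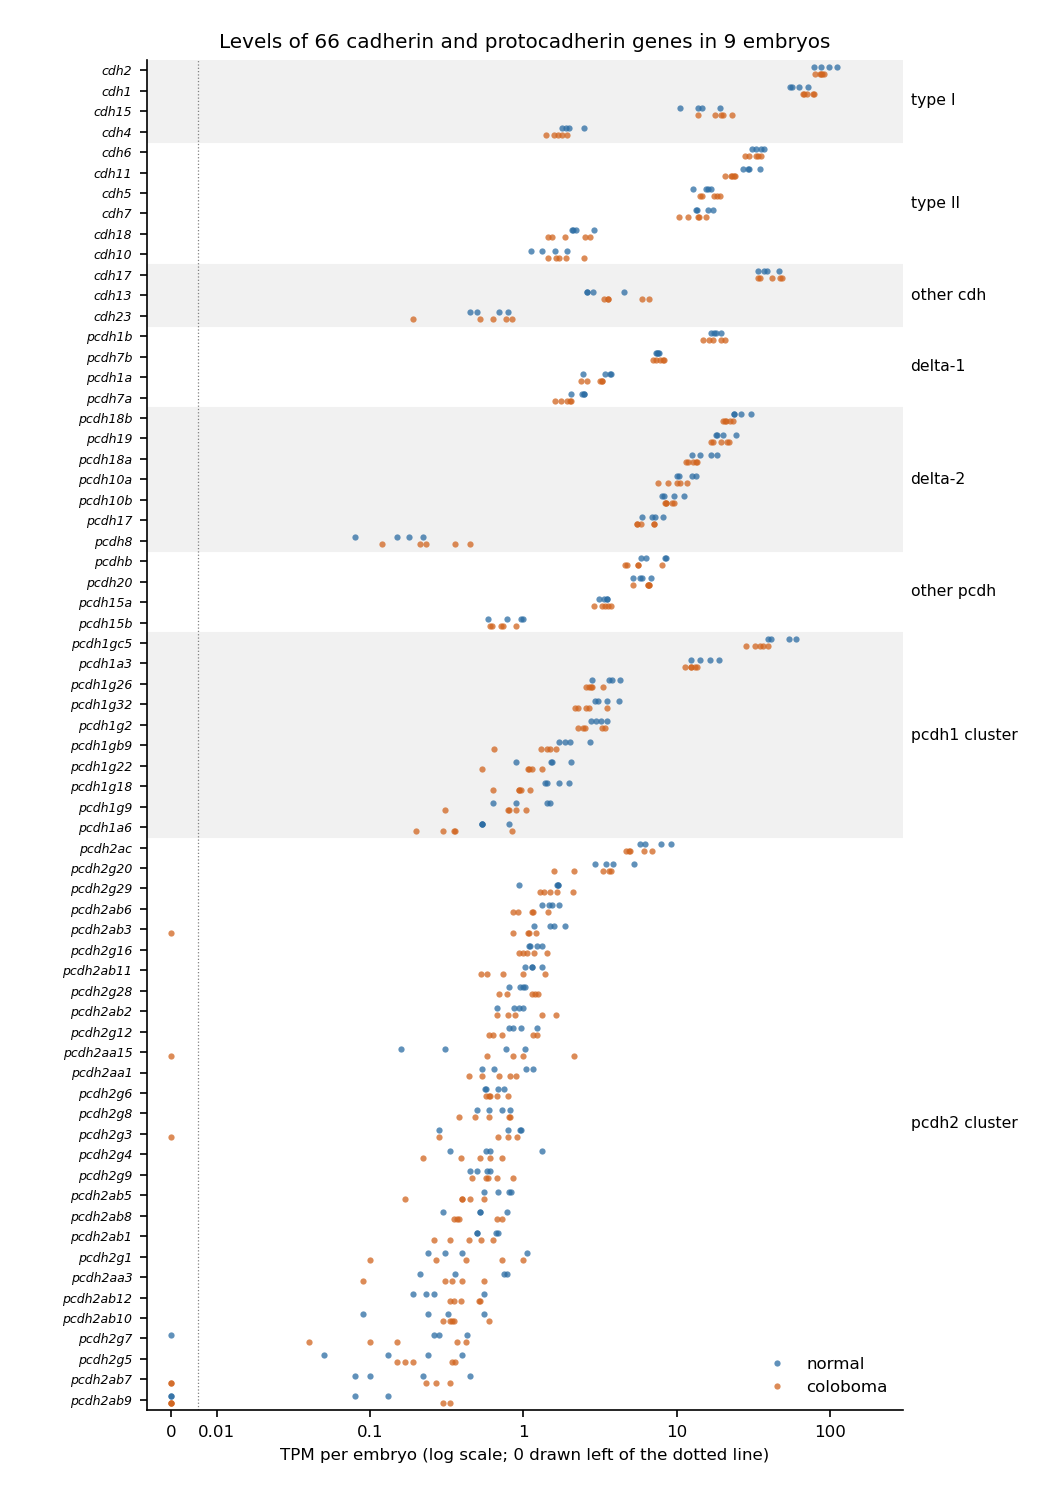
TPM of all 66 members (x axis, log scale) in each of the 9 embryos, ordered by subgroup and mean level. Each point is 1 embryo, blue for normal and orange for coloboma, and a value of 0 is drawn left of the dotted line. The cdh genes and the delta protocadherins are mostly above 1 TPM, while most rows of the pcdh2 cluster lie near or below it.

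Type I cadherins, the classical cadherins of strong tissue adhesion, had 4 measured members. N-cadherin cdh2, the main cadherin of neural tissue, had 291, 258, 321 and 286 CPM in the normal and 276, 282, 307, 274 and 272 CPM in the coloboma embryos. The groups overlapped, and over all 9 embryos the coefficient of variation was 6.68%, smaller than that of any other member. The log2 change was -0.03 ± 0.08 (SE; 95% interval -0.22 to 0.15; edgeR adjusted p = 0.905). R-cadherin cdh4, a cadherin of retina and brain, had 5.22, 4.42, 5.72 and 4.64 CPM in normal and 5.03, 4.66, 4.53, 3.95 and 4.60 CPM in coloboma embryos, again overlapping, with a log2 change of -0.14 ± 0.12 (SE; 95% interval -0.41 to 0.14; edgeR adjusted p = 0.718). For cdh4 and cdh2 an average change by more than a factor of 1.5 in the whole embryo lay outside the interval, which says nothing of a change in a small tissue such as the fissure margin.

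E-cadherin cdh1, the adhesion protein of epidermis and other epithelia, had 114, 126, 108 and 133 CPM in the normal embryos and 156, 155, 161, 137 and 136 CPM in the coloboma embryos. All 5 coloboma embryos lay above all 4 normal ones, with normal embryo 7 (133 CPM) close to coloboma embryos 7 and 6. The log2 change was 0.31 ± 0.09 (SE; 95% interval 0.11 to 0.51; edgeR adjusted p = 0.202), and 1 of 19 alternative settings, DESeq2, called it (adjusted p = 0.0415; range over the alternatives 0.0415 to 0.517). Of 12 epidermis and periderm markers 0 passed the test, 8 had positive values, and their summed level was 24980 to 29710 TPM in normal and 27950 to 30400 TPM in coloboma embryos. On the CPM scale of cdh1 the sums were 34170 ± 4057 in normal and 36860 ± 2437 in coloboma embryos (mean ± SD). The log2 values of these markers ran from -0.57 to 0.32, and 4 were negative. The epithelial adhesion gene epcam was at log2 0.23 ± 0.10 (SE; edgeR adjusted p = 0.404). The lowest value was that of krt17, at -0.57 ± 0.30 (log2, SE; edgeR adjusted p = 0.496). The part of these markers in the cdh1 values was not tested.

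M-cadherin cdh15, which myoblasts use to adhere and fuse, had 19.6, 26.7, 22.4 and 31.3 CPM in normal and 44.3, 34.95, 25.97, 35.9 and 31.1 CPM in coloboma embryos. Coloboma embryo 3 was the highest, and coloboma embryos 5 and 7 lay within the normal range. The log2 change was 0.47 ± 0.17 (SE; 95% interval 0.10 to 0.83; edgeR adjusted p = 0.302). Skeletal muscle markers had values of the same sign: all 17 had positive log2 values (16 or 17 in each alternative) with a median of 0.61. By edgeR 0 of them passed (3 without coloboma embryo 5 and 1 without normal embryo 4), where 0.207% of all genes did. Of the fits with a single embryo left out, that without coloboma embryo 5 also called the most genes in the whole table. By DESeq2 10 of the markers passed, where 2.75% of all genes did. Their summed level was 19890, 26390, 20770 and 17960 TPM in normal and 37230, 28460, 24580, 35170 and 37180 TPM in coloboma embryos. Coloboma embryo 3 was the highest and coloboma embryo 5 the lowest of its group in both cdh15 and these markers, whereas normal embryo 7 was the highest of its group in cdh15 and the lowest of all 9 in the markers. Whether muscle content accounts for the cdh15 values was not tested.

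**Figure D3:**
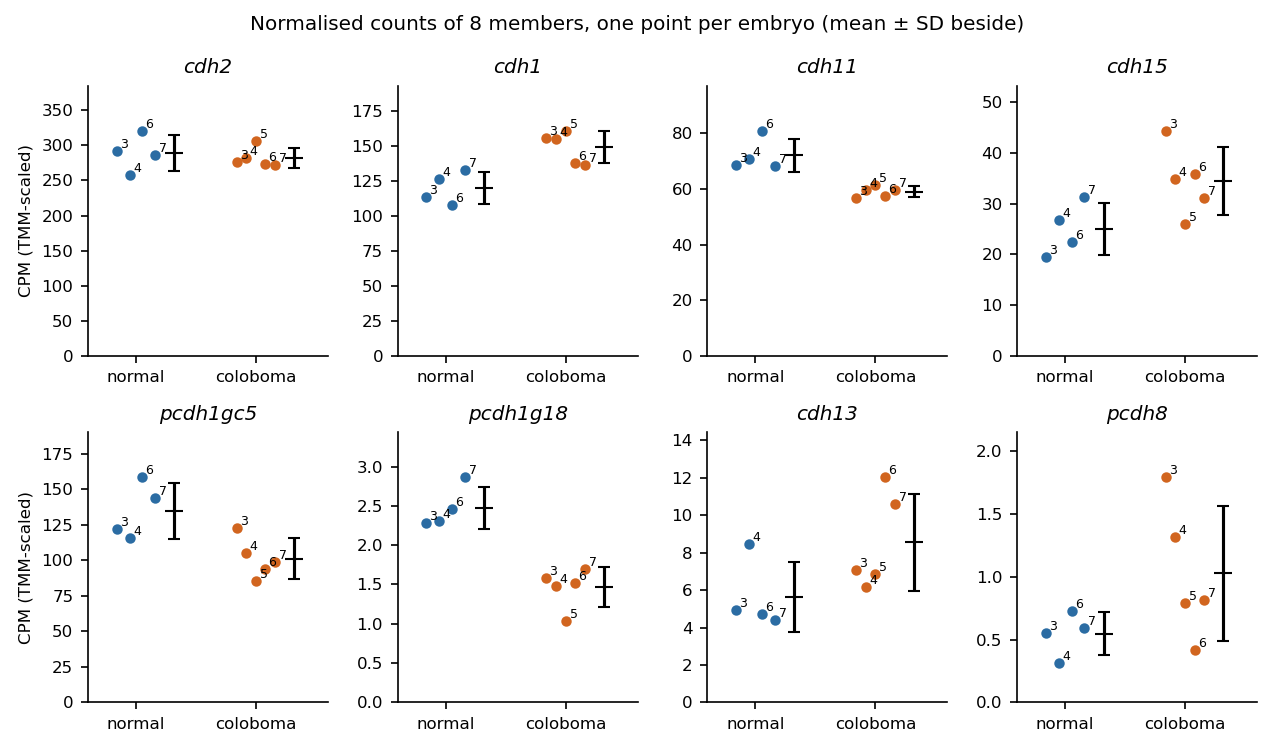
TMM-scaled CPM (y axis, from 0) of 8 members in each embryo, with the embryo number beside each point and the group mean ± SD (n = 4 normal, n = 5 coloboma) at its right. In cdh1, cdh11 and pcdh1g18 the groups do not overlap, while in cdh2, cdh15, pcdh1gc5, cdh13 and pcdh8 they do.

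Type II cadherins, which lack the adhesion motif of type I and mark mesenchyme, vessels and neuron groups, had 6 members under the symbol rule. Their median log2 change was -0.06. The mesenchymal cadherin cdh11 had 68.7, 70.6, 80.8 and 68.3 CPM in normal and 56.9, 59.6, 61.5, 57.3 and 59.7 CPM in coloboma embryos. Every coloboma embryo lay below every normal one, and the coloboma embryos were close together, at 58.99 ± 1.91 CPM (SD, n = 5) against 72.1 ± 5.88 CPM (SD, n = 4). Its log2 change was -0.29 ± 0.07 (SE; 95% interval -0.45 to -0.13; edgeR adjusted p = 0.166), a mean level about 0.818 times that of the normal embryos, and DESeq2 called it (adjusted p = 0.00940; range over 19 alternatives 0.00940 to 0.420). The upper end of that range came from leaving out normal embryo 6, the highest of its group, where the log2 change was -0.24.

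The neural crest and kidney cadherin cdh6 had 98.3, 101, 84.95 and 80.5 CPM in normal and 98.4, 92.1, 93.9, 78.8 and 82.3 CPM in coloboma embryos and a log2 change of -0.03 ± 0.10 (SE; 95% interval -0.25 to 0.18; edgeR adjusted p = 0.925), and its groups overlapped. Its sign turned in 3 of 19 alternatives. Of 10 neural crest markers 0 passed and 6 had negative values. Their summed level was 168 to 201 TPM in normal and 149 to 179 TPM in coloboma embryos. In CPM, the scale used for cdh6 and cdh11, the sums were 307.5 to 343.4 in normal and 280.6 to 344.7 in coloboma embryos. The group means on that scale were close, at 320.3 and 319.1 CPM. The marker with the smallest p was pax7a, a transcription factor of crest and pigment precursors, at -0.40 ± 0.11 (log2, SE; edgeR adjusted p = 0.196).

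VE-cadherin cdh5, the junction protein of endothelium, had 27.02, 33.2, 28.5 and 31.2 CPM in normal and 42.2, 36.8, 37.6, 29.02 and 28.96 CPM in coloboma embryos, with coloboma embryos 3, 4 and 5 above the normal range and 6 and 7 within it. The log2 change was 0.22 ± 0.12 (SE; 95% interval -0.05 to 0.49; edgeR adjusted p = 0.538). Of 13 endothelial markers 0 passed and 11 had positive values (median 0.19), led by the receptor gene kdr at 0.45 ± 0.09 (SE; edgeR adjusted p = 0.108). Their sum was 105 to 119 TPM in normal and 111 to 128 TPM in coloboma embryos. On the CPM scale of cdh5 it was 223 ± 5.66 in normal and 239 ± 21.3 in coloboma embryos (mean ± SD). The part of these markers in the cdh5 values was not tested. The other type II genes, cdh7, cdh10 and cdh18, had log2 changes of -0.11, 0.37 and -0.09 and mean levels of 14.01, 1.68 and 2.16 TPM.

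Of the cadherins outside these classes, cdh17 is a gene of the zebrafish pronephros and had 90.6, 106, 68.4 and 76.01 CPM in normal and 85.02, 94.3, 112, 108 and 74.3 CPM in coloboma embryos. The groups overlapped and the log2 change was 0.15 ± 0.15 (SE; 95% interval -0.18 to 0.49; edgeR adjusted p = 0.741). The 11 pronephros markers had a median of 0.03 and log2 values from -0.26 to 0.87, with 0 past the threshold. T-cadherin cdh13, which is anchored in the membrane by lipid and has no catenin-binding tail, had 4.94, 8.44, 4.75 and 4.37 CPM in normal and 7.09, 6.17, 6.85, 12.01 and 10.6 CPM in coloboma embryos. Normal embryo 4 lay among the coloboma embryos, and coloboma embryos 6 and 7 were above the rest. Its log2 change was 0.61 ± 0.25 (SE; 95% interval 0.06 to 1.16; edgeR adjusted p = 0.372), and 0.87 without normal embryo 4 (edgeR adjusted p = 0.157).

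The tip link genes cdh23 and pcdh15a, whose proteins join the stereocilia of hair cells, had mean levels of 0.598 and 3.37 TPM. For cdh23 the levels were 1.84, 2.50, 1.58 and 2.43 CPM in normal and 2.33, 2.99, 1.08, 2.46 and 2.02 CPM in coloboma embryos, with a log2 change of 0.08 ± 0.26 (SE; 95% interval -0.49 to 0.65; edgeR adjusted p = 0.927) whose sign turned in 5 of 19 alternatives, among them scaling by library size alone. For pcdh15a they were 10.7, 11.4, 11.9 and 7.93 CPM in normal and 11.7, 10.4, 13.8, 9.35 and 10.9 CPM in coloboma embryos, with a log2 change of 0.09 ± 0.14 (SE; 95% interval -0.22 to 0.41; edgeR adjusted p = 0.842) that turned in 3 alternatives. The 6 hair cell markers tested had a median of 0.01 and 0 passed, but their values were spread widely. They ran from -0.75 ± 0.24 for atoh1b to 0.85 ± 0.22 for tmc1 (log2, SE; edgeR adjusted p = 0.261 and 0.168). The second copy pcdh15b was at 0.768 TPM with a log2 change of -0.08.

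The delta protocadherins, single genes that act in cell movement and axon growth, numbered 11 under the symbol rule. Their log2 changes were -0.26 for pcdh7a, 0.88 for pcdh8 and between -0.20 and 0.14 for the others. Of the delta-1 genes, pcdh1b had 40.6, 38.3, 36.4 and 39.6 CPM in normal and 36.2, 43.3, 48.6, 36.1 and 37.5 CPM in coloboma embryos and a log2 change of 0.06 ± 0.10 (SE). The gene pcdh7a had 6.55, 6.70, 5.94 and 4.91 CPM in normal and 4.63, 5.41, 4.83, 5.24 and 4.97 CPM in coloboma embryos. The normal embryos were mostly the higher, although normal embryo 7 lay inside the coloboma range, and the log2 change was -0.26 ± 0.12 (SE; 95% interval -0.53 to 0.01; edgeR adjusted p = 0.438). Its paralog pcdh7b had a log2 value of 0.14 ± 0.09 (SE).

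Of the delta-2 genes, pcdh18b and pcdh18a had similar values. The levels of pcdh18b were 73.8, 64.96, 75.4 and 58.6 CPM in normal and 58.9, 56.5, 66.5, 55.95 and 59.1 CPM in coloboma embryos, a log2 change of -0.20 ± 0.09 (SE; 95% interval -0.40 to 0.00; edgeR adjusted p = 0.439). Those of pcdh18a were 44.6, 38.6, 50.1 and 46.3 CPM in normal and 44.1, 38.5, 43.1, 35.6 and 33.9 CPM in coloboma embryos, a log2 change of -0.20 ± 0.11 (SE; 95% interval -0.43 to 0.03; edgeR adjusted p = 0.494). In both genes normal embryo 6 was the highest of the 9 and the groups overlapped.

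The gene pcdh19, which acts with N-cadherin in zebrafish neurulation, had 59.3, 56.8, 68.99 and 56.6 CPM in normal and 74.1, 65.9, 56.6, 52.1 and 58.8 CPM in coloboma embryos and a log2 change of 0.03 ± 0.11 (SE; 95% interval -0.22 to 0.27; edgeR adjusted p = 0.950). In the axon growth gene pcdh17 the levels were 21.6, 18.2, 22.4 and 19.9 CPM in normal and 19.2, 21.4, 22.6, 16.8 and 16.3 CPM in coloboma embryos, a log2 change of -0.10 ± 0.11 (SE). Both genes had overlapping groups, and the sign of pcdh19 turned in 7 of 19 alternatives. The paralogs pcdh10a and pcdh10b, neural protocadherins, differed in spread: pcdh10a had 19.8, 14.4, 15.6 and 10.8 CPM in the normal embryos, a range that held all of the coloboma values (11.5, 12.8, 13.4, 14 and 14.1 CPM). For pcdh10b the levels were 26.4, 21.7, 26.8 and 19.8 CPM in normal and 24.4, 22.3, 26.6, 22.5 and 24.2 CPM in coloboma embryos, with log2 changes of -0.20 ± 0.15 for pcdh10a and 0.02 ± 0.11 for pcdh10b (SE), the latter of either sign across alternatives.

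Paraxial protocadherin pcdh8, a gene of gastrulation movements and somite formation, was the one placed member on chromosome 9, the chromosome of zic2a in the GRCz12tu annotation. It was low, with 24, 13, 42 and 29 counts in normal and 53, 68, 16, 24 and 46 counts in coloboma embryos, or 0.552, 0.315, 0.728 and 0.593 CPM in normal and 1.79, 1.32, 0.789, 0.418 and 0.816 CPM in coloboma embryos. Coloboma embryos 3 and 4 were the highest and coloboma embryo 6 lay inside the normal range. The log2 change was 0.88 ± 0.41 (SE; 95% interval -0.02 to 1.78; edgeR adjusted p = 0.438). It was 0.60 without coloboma embryo 3 (edgeR adjusted p = 0.601). On chromosome 1, which carries zic2b, the placed members were pcdh7a, pcdh10a and pcdh18a, with values given above.

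The clustered protocadherins made up 38 of the 66 rows, 10 in the pcdh1 cluster and 28 in the pcdh2 cluster. In the GRCz12tu annotation, used for neighbourhood only, the 9 placed rows of the first lay on chromosome 10 and the 22 of the second on chromosome 14, and 8 and 21 of them shared one end of their gene span with another row. Such rows may have exons in common, and estimated counts divide reads from shared exons between rows, so values of single rows are uncertain and rows of a cluster are not independent of each other. In the pcdh1 cluster pcdh1gc5 alone held 53.1 to 61.6% of the summed TPM in each embryo.

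In the pcdh1 cluster all 10 rows had negative log2 values (median -0.42), as did 49.9% of all genes, and none passed the threshold by edgeR. At an unadjusted edgeR p under 0.05 there were 3 rows, beside 11.7% of all genes. DESeq2 called 1 row, pcdh1g18, and 2.75% of all genes. As the rows are not independent, these counts are not counts of separate results. The sign was negative for every row of the cluster tested in each of the 19 alternatives. Summed over the cluster, the levels were 70.4, 66.8, 98.3 and 90.3 TPM in normal and 64.1, 63.5, 53.6, 56.9 and 59.6 TPM in coloboma embryos. On this scale all coloboma embryos lay below all normal embryos, and normal embryos 3 and 4 were nearer to them than 6 and 7 were. In summed CPM, with TMM scaling, the levels were 186, 173, 233 and 213 in normal and 181, 162, 142, 147 and 152 in coloboma embryos, and coloboma embryo 3 lay inside the normal range. On the TPM scale the median log2 change of all genes was -0.06 (pseudocount 1) or -0.08 (pseudocount 0.1).

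The row pcdh1gc5 had 122, 116, 158 and 144 CPM in normal and 123, 105, 85.5, 93.6 and 99.1 CPM in coloboma embryos. Coloboma embryo 3 was within the normal range and the other 4 were below it. The log2 change was -0.41 ± 0.12 (SE; 95% interval -0.69 to -0.14; edgeR adjusted p = 0.211), and -0.49 without coloboma embryo 3 (edgeR adjusted p = 0.161). The row pcdh1g18 had 2.28, 2.30, 2.46 and 2.86 CPM in normal (95 to 142 counts) and 1.59, 1.48, 1.04, 1.52 and 1.70 CPM in coloboma embryos (21 to 96 counts), with no overlap in CPM. Its log2 change was -0.74 ± 0.17 (SE; 95% interval -1.12 to -0.36; edgeR adjusted p = 0.131), a mean level about 0.597 times that of the normal embryos, with an adjusted p of 0.0126 by DESeq2 and of 0.0126 to 0.351 over the 19 alternatives. For pcdh1gb9 the levels were 3.17, 2.86, 4.04 and 2.98 CPM in normal and 2.33, 2.29, 1.08, 2.65 and 2.38 CPM in coloboma embryos, with no overlap and coloboma embryo 5 lowest, and the log2 change was -0.58 ± 0.22 (SE; 95% interval -1.08 to -0.09; edgeR adjusted p = 0.336). Without pcdh1gc5 the other 9 rows summed to 29.02, 27.2, 38.1 and 36.02 TPM in normal and 24.6, 27.03, 25.1, 24.5 and 24.8 TPM in coloboma embryos, where all 5 coloboma embryos were below normal embryo 4, the lowest normal one, coloboma embryo 4 only slightly so. In summed CPM these 9 rows overlapped between the groups, with coloboma embryo 3 at 58.1 above normal embryo 4 at 57.5.

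Neuron markers had values of the same sign. All 11 measured had negative log2 values (10 or 11 in each alternative; median -0.15), 0 passed, and their summed level was 879.5, 771, 1128 and 857 TPM in normal and 679.7, 725, 783, 658 and 732 TPM in coloboma embryos. Normal embryo 6 was the highest of the 9 both in these markers and in the pcdh1 cluster, whereas coloboma embryo 5 was the highest of its group in the markers and the lowest in the cluster. Retinal progenitor markers, with 16 of 17 log2 values negative (14 to 17 in the alternatives), a median of -0.29 and 0 past the threshold, summed to 268 to 386 TPM in normal and 168 to 301 TPM in coloboma embryos. The lowest of these sums was that of coloboma embryo 3, and the other coloboma embryos had 246 to 301 TPM. Without coloboma embryo 3 the median was -0.19, with 14 of 17 values negative. The part of either marker list in the values of the pcdh1 cluster was not tested. DESeq2 called 1 marker each in the retinal progenitor, endothelium, pronephros, hair cell and neural crest lists, where it called 2.75% of all genes.

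**Figure D4:**
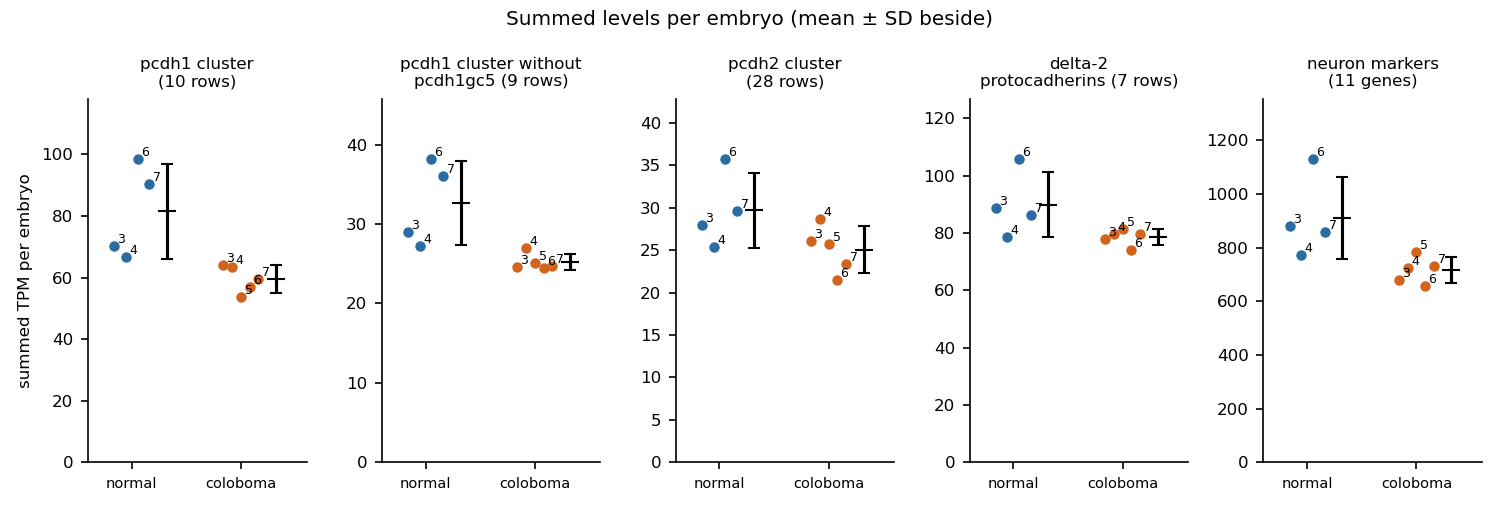
Summed TPM per embryo (y axis, from 0) of the pcdh1 cluster, of the same cluster without pcdh1gc5, of the pcdh2 cluster, of the delta-2 protocadherins and of 11 neuron markers, with embryo numbers and the group mean ± SD (n = 4 normal, n = 5 coloboma). Normal embryo 6 is the highest in every panel, and on the TPM scale the groups do not overlap in the first 2 panels only.

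The pcdh2 cluster had no common direction. Of its 27 tested rows 10 had positive and 17 negative values, with a median of -0.04, and in the alternatives that fitted 27 or 28 rows the number of negative ones went from 12 to 18. The filter on a mean of 1 CPM left 15 rows, 10 of them negative. Its summed level was 28, 25.4, 35.7 and 29.7 TPM in normal and 26.02, 28.7, 25.7, 21.5 and 23.4 TPM in coloboma embryos, which overlapped. The row with the highest level was pcdh2ac, at 6.29 TPM and a log2 change of -0.32 ± 0.16 (SE). Among its lower rows pcdh2ab5 had 0.920, 1.12, 1.21 and 1.17 CPM in normal and 0.709, 0.893, 0.690, 0.279 and 0.71 CPM in coloboma embryos, with no overlap and a log2 change of -0.76 ± 0.30 (SE; 95% interval -1.42 to -0.10; edgeR adjusted p = 0.359). For pcdh2ab6 the levels were 2.58, 2.16, 2.15 and 2.49 CPM in normal and 1.49, 2.31, 1.92, 1.48 and 1.79 CPM in coloboma embryos, with coloboma embryo 4 inside the normal range, and a log2 change of -0.38 ± 0.18 (SE; 95% interval -0.77 to 0.00; edgeR adjusted p = 0.431). The row pcdh2ab9, which had 6 to 25 counts in 4 embryos and none in the other 5, was the one member left untested for low counts. The remaining protocadherin rows, pcdh20 and pcdhb, which their symbols do not assign to a cluster, had log2 changes of 0.17 ± 0.10 and -0.32 ± 0.17 (SE). Of these, pcdhb was placed on chromosome 14, as were the placed rows of the pcdh2 cluster.

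The genes that act with cadherins were measured as lists. Of 13 catenins and linkers, which tie cadherins to actin, 0 passed, with 9 positive values and a median of 0.07. Vinculin gene vcla, also a part of muscle attachments, was at 0.74 ± 0.24, alpha-catenin gene ctnna2 at 0.27 ± 0.14 and beta-catenin gene ctnnb2 at -0.39 ± 0.27 (log2, SE; edgeR adjusted p = 0.269, 0.490 and 0.617). Of these 3 genes ctnna2 lies on the chromosome of zic2b. Of 14 tested members of the cadherin superfamily outside the symbol rule, such as the Fat, Celsr, Dachsous and calsyntenin genes, 0 passed and the median was 0.00. The atypical cadherin gene fat2 was at 0.38 ± 0.09 (log2, SE; edgeR adjusted p = 0.131).

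Of 10 genes for proteases that cleave cadherins, or for subunits of such proteases, 0 passed (median -0.07). Among them furina, a gene for a furin protease that cuts the propeptide from cadherins, was at 0.17 ± 0.10 (log2, SE; edgeR adjusted p = 0.527). Of 14 genes of transcription factors of the Snail, Zeb, Twist and E-protein families, which include repressors of cdh1, 0 passed and the median was -0.01. The crest and mesenchyme factor twist1a was at -0.43 ± 0.16 and zeb2a, a gene on the chromosome of zic2a, at -0.22 ± 0.09 (log2, SE; edgeR adjusted p = 0.327 and 0.350). None of these 4 lists held a gene past the edgeR threshold, where 0.207% of all genes passed. DESeq2 called 1 gene in the list of the cadherin superfamily outside the symbol rule and 0 in the other lists, where it called 2.75% of all genes.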

How the data were processed

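Per the labels' protocols, libraries of total RNA were prepared with a TruSeq RNA kit, one for each embryo. The deposited estimated counts per gene symbol are whole numbers and were handled as RSEM expected counts, rounded before they were deposited, since the submitters' processing notes name RSEM 1.2.18 beside Bowtie 1.1.1, CASAVA 1.8.2 and the build Zv9. Which tool did which step, and with which annotation, is not given in the sources used here. Deposited TPM values cover the same 22337 genes and served for levels and as an alternative input (log2 with a pseudocount of 1 or 0.1).

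Counts were tested with edgeR 4.0.16 (R 4.3.3), using filterByExpr with a minimum count of 10, TMM factors and a quasi-likelihood F test of coloboma against normal embryos without covariates. The fit covered 21293 genes, with Benjamini-Hochberg adjustment over all of them and a threshold of 0.05, two-sided. Each standard error was derived from a gene's log2 change and F statistic, and 95% intervals from the moderated degrees of freedom. They are not adjusted for the number of members. Alternatives were other scalings, robust edgeR, DESeq2 1.42.0, limma 3.58.1 (voom, and trend on TPM), 2 other filters, a threshold of 0.1, the embryo number as a block, and leaving out each embryo in turn. The steps were tested on simulated data, in which each gene had the spread of the fitted trend at its level. Genes that vary more than this trend were not simulated. There 22% of the log2 changes of 0.5 were recovered and 94% of those of 1, with 5 false calls among 162. In the embryos themselves the muscle markers ryr1b and atp2a1, at log2 1.22 and 1.01, did not pass (edgeR adjusted p = 0.156 and 0.154). How often a change of either size would be found in a member was not tested.

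The members and lists were chosen with earlier results of these data known. Members described by embryo were those past the threshold, the 12 with the smallest p, the 5 with the highest mean TPM among cdh and among pcdh genes, 17 symbols whatever their values, and those on the chromosome of zic2a. In other lists up to 3 genes with the smallest p are named. One gene of these is not reported here. The rule was case-sensitive. Chromosomes were looked up by symbol or synonym in RefSeq genes (GRCz12tu), which placed 59 of the 66 members. Of the coordinates only the ends of gene spans were used, to find clustered rows that share an end. Sequences were not used here. Within each group every pair of embryos differed beyond counting noise (chi-square per degree of freedom 26.2 to 75.7), so none was treated as a repeat. The kit does not mark strand, so reads of overlapping antisense genes may be mixed.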

Additional observations from a re-analysis of the deposited data

Results flagged for a closer look

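For 3 of the 50 groups of values examined (25 members in 2 groups), one embryo lay far from the rest of its group by Dixon's test at the 95% level, and chance alone gives about 1 in 20 such groups. In the normal embryos cdh13 was at 8.44 CPM in embryo 4, against 4.37 to 4.94 CPM in the other 3. In the coloboma embryos cdh2 was at 307 CPM in embryo 5, against 272 to 282 CPM in the other 4. In the same embryo pcdh1gb9 was at 1.08 CPM, from 22 counts, against 2.29 to 2.65 CPM in the other 4. Coloboma embryo 5 is the smallest library, and its part in these values was not tested.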

How the results depend on the processing

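The count of 0 members past the threshold held in every alternative other than DESeq2, where it was 3 (1 higher, 2 lower), including a threshold of 0.1, every embryo left out and the fit with the embryo number as a block. Over all genes the count of 44 became 578 with DESeq2 (367 higher, 211 lower, against 17 and 27), 86 at a threshold of 0.1 and 18 with the replicate block. It ran from 21 to 235 with one embryo left out, the highest without coloboma embryo 5, in which 0 members passed, and the lowest without normal embryo 3 or coloboma embryo 4. It was 25 without normal embryo 6 and 27 without normal embryo 7. Same-numbered embryos did not deviate together (correlations of -0.0662 to 0.0575), so the numbers were not taken as pairs, and the block leaves out coloboma embryo 5. The median log2 change over members ran from -0.17 to -0.02 across 19 alternatives. Of 25 members described by embryo, 18 kept the sign of their log2 change in every alternative that could be fitted and 7 did not (cdh2, cdh6, cdh23, pcdh10b, pcdh15a, pcdh19 and pcdh1b). Scaling by library size alone moved the median of all genes from 0.00 to -0.08 and gave 19 positive and 46 negative members, against 24 and 41. The filter on a mean of 1 CPM left no value for pcdh8 and pcdh2ab5. In low rows of the pcdh2 cluster the spread over embryos was above counting error: the coefficient of variation was 87.2% for pcdh2aa15 and 68.6% for pcdh2g1, where counting alone gives 14.2% and 17.4%.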

Other observations

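In the pcdh2 cluster 6 rows had no count in at least 1 embryo, chosen here after their values were seen. The row pcdh2ab3 had 0 counts in coloboma embryo 5, where 3 counts would be 0.148 CPM, and 56 to 133 counts (1.36 to 2.72 CPM) in the other 8 embryos. In the same embryo pcdh2g3 had 0 counts, against 19 to 81 counts (0.453 to 1.63 CPM) in the others. The row pcdh2aa15 had 0 counts in coloboma embryo 3, where 3 counts would be 0.101 CPM, and 14 to 81 counts elsewhere, reaching 3.65 CPM in coloboma embryo 5. A count of 0 allows a level up to those floors, which cover counting error only. The rows pcdh2ab7 (coloboma embryos 3 and 5), pcdh2g7 (normal embryo 4) and pcdh2ab9 (5 embryos of both groups) were also listed at 0. Estimated counts divide reads of shared exons between rows, so a 0 in one row is not a separate count of molecules. The cause of the zeros was not tested.

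Outside the symbol rule the table held 12 rows with capital symbols, such as CDH8, PCDH9 and PCDH12. Some belong by symbol to the classes above, such as CDH8, CDH12, CDH18 and CDH19 to type II and PCDH9 to the delta-1 protocadherins. The class counts, medians and shares given above leave these rows out. All 12 were tested, 0 passed, 6 had positive and 6 negative log2 values, and their median was -0.03. Together they summed to 49.1 to 61.4 TPM in normal and 45.2 to 58.04 TPM in coloboma embryos.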
